A study of Mus musculus with 22 samples.

Results

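Neuropeptides are made as precursor proteins that are cut, trimmed and stored in dense core vesicles before they are released. A set of 10 such genes was examined, out of 29367 genes counted. They are the peptide precursors Cartpt, Cck, Penk and Npy, the granins Vgf, Scg2, Scg3 and Chgb, and the processing genes Cpe and Pcsk1n. The genes were chosen by symbol, and the choice was made from levels already seen in these same libraries, so their values are given as a description and carry no p-value. Where a gene of the set is said to be past or not past a threshold, this describes the fit and is no test of that gene.

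The study asked how astrocytes of the optic nerve respond to raised intraocular pressure (IOP), a model of glaucoma. IOP was raised by injecting microbeads into one eye, which obstructs the outflow of fluid. The optic nerve head (ONH) is the unmyelinated stretch where axons leave the eye, and the optic nerve proper (ONP) is the myelinated nerve behind it. Both regions were taken 7 or 30 days after injection, with 4 libraries per region at 7 days and 7 per region at 30 days (22 in all), and each library pooled the tissue of 4 mice (2 males and 2 females). The paper states that ONH and ONP tissue came from the same mice, but the main comparisons of the regions here are unpaired.

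All mice, aged 3 to 4 months, derived from the cross of B6J.129(Cg)-Rpl22tm1.1Psam/SjJ with the GFAP-Cre line 73.12Mvs/J on a B6.Cg background. By the paper, heterozygous offspring of this cross were bred to each other. The mice used were homozygous for the Rpl22 allele that can be tagged and carried the Cre transgene (Rpl22HA/HA Cre+). The labels call them WT. In the first strain Cre adds an HA tag to the ribosomal protein Rpl22, and in the second the GFAP promoter drives Cre, so the mRNA recovered is that bound to ribosomes of cells in which this promoter is or once was active. Every library is from a microbead-injected mouse. Uninjured mice were not analysed here, so the values compare regions and days after injection and not injury with health.

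As background, astrocytes, like neurons and endocrine cells, have a regulated secretory pathway. Granins are acidic proteins that help to load and form the dense core vesicles, and several are also cut into peptides. Carboxypeptidase E removes basic residues from peptides after convertases have cut the precursor. CART, the product of Cartpt, is best known from hypothalamic neurons.

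Promoter windows of RefSeq (GRCm38.p6), from 250 bases before to 50 bases after the start site, were found for 7 of the 10 genes. Penk, Vgf and Cpe had no entry. The letters of the cAMP response element, TGACGTCA, which read the same on both strands, were in 3 of these 7 windows, against 1.79% of all 32851 windows. A stretch of 100 bases, 130 to 31 bases before the start, is shown for these 3 genes so that the place of the element can be compared, with the element in capitals, read 5′ to 3′ on the strand of the gene.
Cartpt: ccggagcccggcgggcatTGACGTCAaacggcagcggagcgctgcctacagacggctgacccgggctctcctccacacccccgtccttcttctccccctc
Scg2: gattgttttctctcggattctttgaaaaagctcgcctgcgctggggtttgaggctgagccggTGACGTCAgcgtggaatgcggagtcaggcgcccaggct
Chgb: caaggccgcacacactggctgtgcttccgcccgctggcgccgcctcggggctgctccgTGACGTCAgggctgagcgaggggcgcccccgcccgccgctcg

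The element began 112 bases before the start of Cartpt (chr13:99900714-99900813, minus strand), 68 bases before that of Scg2 (chr1:79440057-79440156, minus strand) and 72 bases before that of Chgb (chr2:132781512-132781611, plus strand). The shorter core TGACG, which is part of the element, was searched on both strands and was in the windows of 5 of the 7 genes, adding Cck and Scg3, against 20.8% of all windows. Npy and Pcsk1n held neither. These are matches of letters only. The 3 genes with the full element did not share a pattern of levels. Cartpt and Scg2 separated the ONH from the ONP without overlap at both times, while Chgb overlapped between the regions.

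Libraries held 16292489 to 33307092 counts, so 3 counts, taken as the smallest detectable amount, correspond to 0.0901 to 0.184 CPM (counts scaled to the same library total). All 10 astrocyte markers examined were above 3 counts in every library, with summed levels of 13010 to 32410 CPM and Gfap the highest. Markers of other cells were also present. The sum of 8 photoreceptor markers was 105 to 5751 CPM in the ONH and 2.57 to 129 CPM in the ONP, and it was above 1000 CPM in libraries 5 and 6 of the ONH at 7 days (1484 and 5751 CPM) and in replicate 4 of the ONH at 30 days (2334 CPM). The pituitary hormone list stood at 224 CPM in replicate 7 of the ONH at 30 days, next to 30.9 CPM in replicate 4 and at most 7.24 CPM in any other library. These 4 libraries are called marker-rich here, and for some genes the results without them are given as well. The oligodendrocyte list was 81720 to 107100 CPM in the ONP at 7 days, 25720 to 83470 CPM in the ONP at 30 days, and 13700 to 41270 CPM in the ONH. The pigment cell list was 77.8 to 976 CPM in the ONH and 3.46 to 8.40 CPM in the ONP, and the Muller glia list 220 to 485 and 91.3 to 148 CPM. Neuron markers summed to 90.8 to 274 CPM in the ONH and 108 to 488 CPM in the ONP. In pooled tissue, fewer cells of a type and less RNA per cell cannot be told apart.

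**Figure D1:**
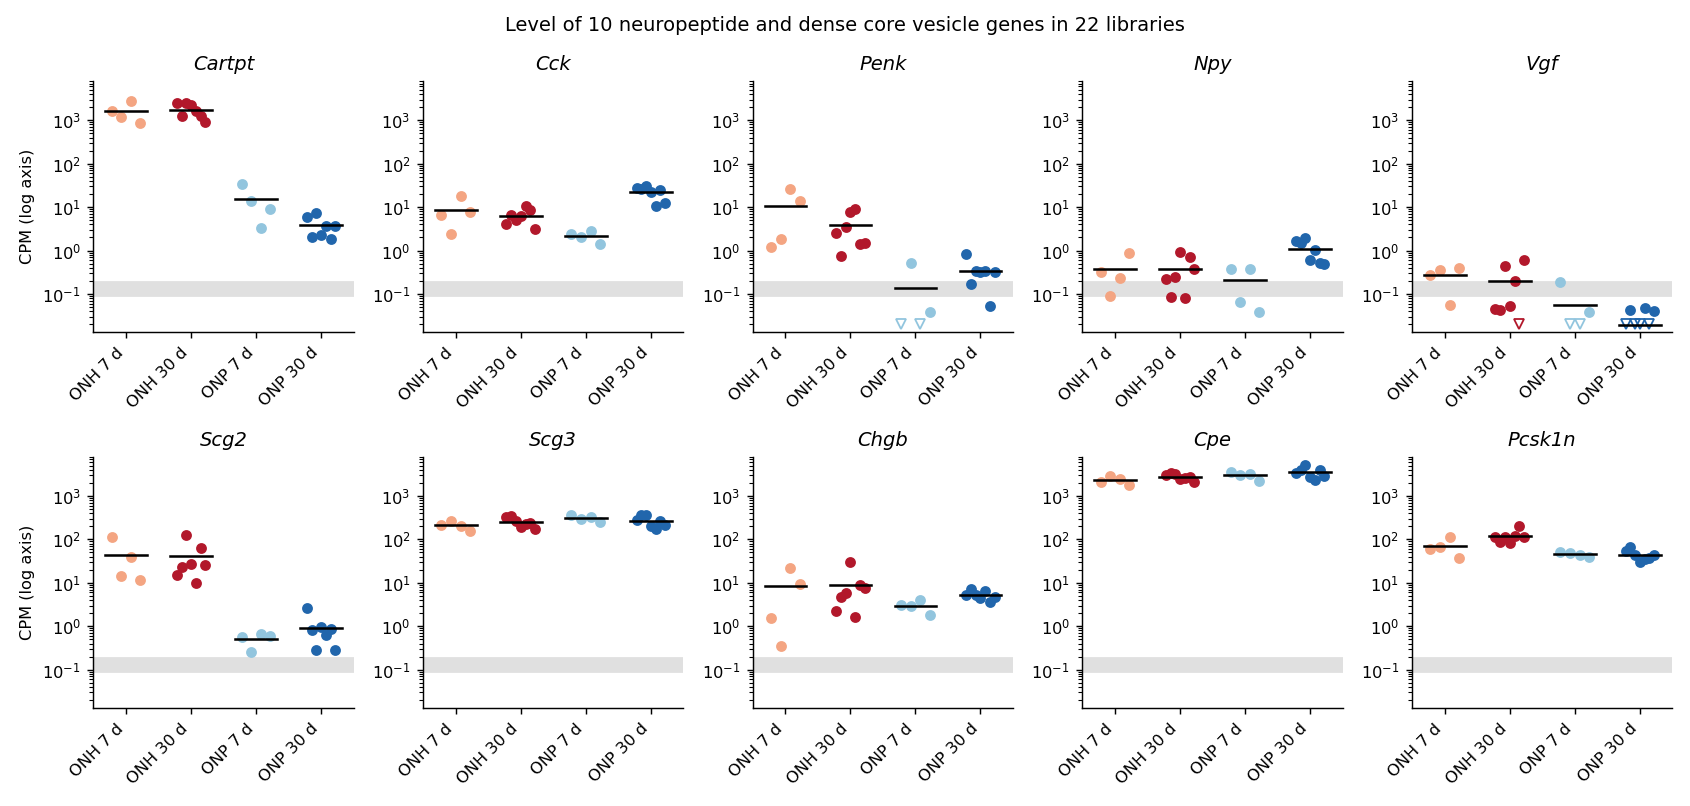
Level of each gene in CPM (log axis) in each of the 22 libraries, by region and day. Points are libraries, lines are group means, the grey band is the range of 3 counts, and open triangles are libraries with 0 counts. Cartpt, Scg2 and Penk are higher in the ONH than in the ONP, Cck and Npy have their highest means in the ONP at 30 days, and Cpe and Scg3 are abundant in all 4 groups.

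Levels between genes were compared as CPM per kb of merged exon. In the ONH, Cartpt stood first, at 1368 ± 490 CPM per kb at 30 days (SD, n = 7) and 1256 ± 643 at 7 days (n = 4). Cpe was second there, at 1066 ± 162 and 883 ± 193 CPM per kb, and within these spreads the pair did not differ. Scg3 came next in the ONH, at 92.04 ± 22.8 CPM per kb at 30 days. In the ONP the order began with Cpe, at 1330 ± 352 CPM per kb at 30 days and 1162 ± 216 at 7 days, followed by Scg3 and Pcsk1n, and Cartpt stood at place 5 of 10 at 30 days with 2.99 ± 1.63 CPM per kb. Vgf was last of the 10 in every group. Ranked by CPM among all 29367 genes, Cpe was between 19th and 26th in the 4 groups, and Cartpt was 45th in the ONH at 30 days but 11572th in the ONP.

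For ONH vs ONP at 30 days, the fit put 6 of the 9 genes fitted past an adjusted p-value of 0.05, with Cartpt, Penk, Scg2 and Pcsk1n higher in the ONH and Cck and Npy lower. This threshold was passed by 41.8% of all genes in that comparison, and nothing is read from the count of members since they were selected on these values. Penk entered this fit through its ONH counts and Npy through its ONP counts. Cartpt, Scg2 and Pcsk1n did not overlap between the regions, as was the case for 16.4% of all genes. The 6 genes were also past it with the marker-rich libraries left out, but Npy was not when any of 7 of the 14 libraries was left out.

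At 7 days, 4 of the 8 genes fitted were past the threshold, all higher in the ONH (Cartpt, Cck, Penk and Scg2), beside 13.2% of all genes. Cartpt, Penk and Scg2 did not overlap between the regions, beside 21.7% of all genes. Penk entered this fit only through its ONH counts, and nothing is read from these counts of genes either. With the marker-rich libraries left out, which leaves 2 ONH libraries, Cartpt and Scg2 were past it and Cck and Penk were not.

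For the ONP between 7 and 30 days, 3 of the 8 genes fitted were past the threshold, with Cck and Npy higher and Cartpt lower at 30 days, beside 17.0% of all genes. Cck and Npy did not overlap between the days, beside 12% of all genes. Npy entered this fit only through its counts at 30 days, and nothing is read from the number of genes. In the ONH, edgeR passed 0 of 8 (1 at an unadjusted p under 0.05, Pcsk1n, and 0 with DESeq2). Of all genes it passed 0.0% there, and 2.28% did not overlap. DESeq2 passed 446 of all genes, and 2179 had an unadjusted p under 0.05 with edgeR. For the difference between the regions in the 30 vs 7 day change, 1 of the 9 genes fitted was past the threshold (Cck), beside 0.543% of all genes, and since Cck was chosen on these levels this is no support for a difference.

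**Figure D2:**
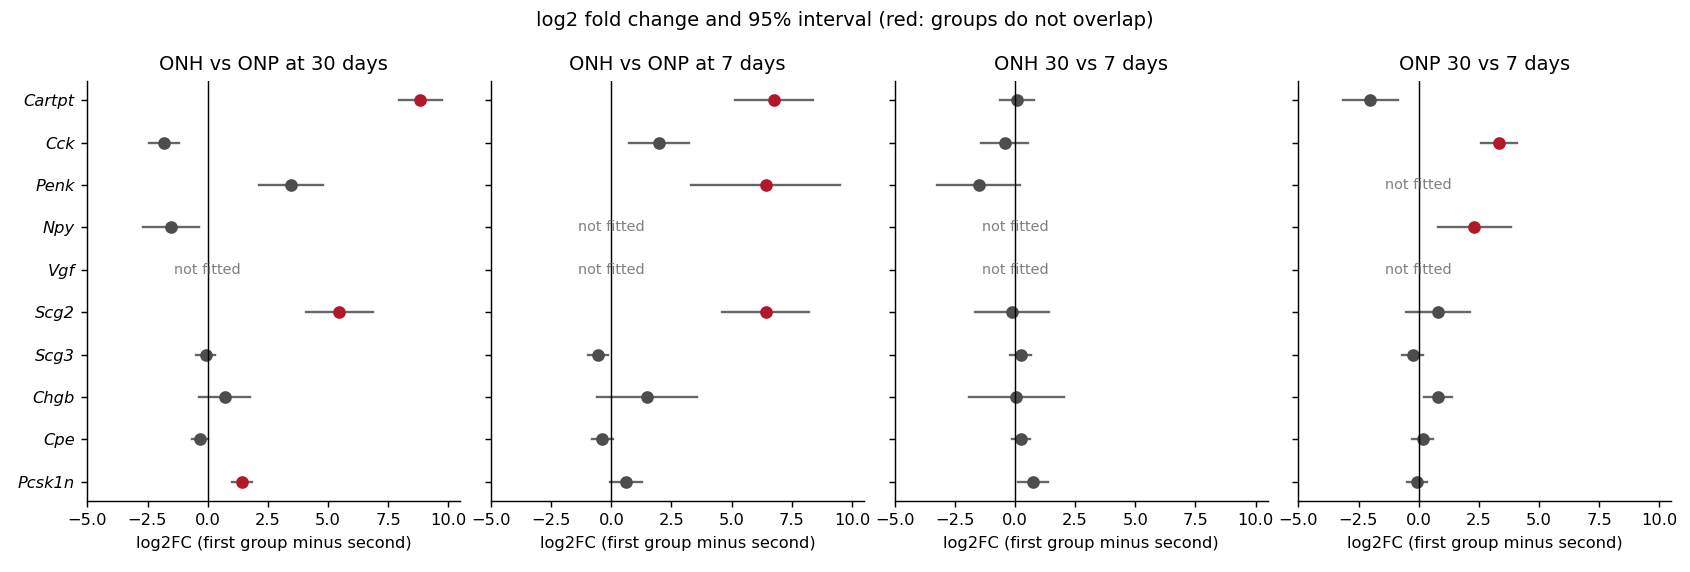
log2 fold change (log2FC) with its 95% interval for each gene in 4 comparisons, as the first group minus the second. Red points are genes whose groups do not overlap. Cck lies right of 0 for ONH vs ONP at 7 days and left of 0 at 30 days, and no gene is red for the ONH between the days.

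Cartpt encodes the precursor of the CART peptides. In the ONH its level was 1620, 1210, 2740 and 844 CPM in libraries 1, 3, 5 and 6 at 7 days, and ran from 903 over a median of 1665 to 2474 CPM at 30 days. The lowest value at 30 days was in replicate 7, the library with pituitary hormones, and the lowest at 7 days was in library 6, the library with the most photoreceptor markers. Each was also the highest of its group in the oligodendrocyte list (41270 and 35700 CPM) and the microglia and macrophage list (3145 and 1659 CPM). Levels in the ONP were 33.7, 14.1, 3.36 and 9.07 CPM in libraries 1, 2, 5 and 6 at 7 days, and 1.81 to 7.20 CPM (median 3.70) at 30 days. The ONH and ONP did not come near each other at either time. The mean was 457 times higher in the ONH at 30 days (log2FC 8.84, SE 0.43) and 106 times higher at 7 days (log2FC 6.77, SE 0.73). Without library 1 of the ONP at 7 days, the highest of its group, the latter log2FC was 7.52.

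In the ONH, Cartpt was 1603 ± 821 CPM (SD, n = 4) at 7 days and 1747 ± 626 CPM (n = 7) at 30 days. The log2FC between the days was 0.10, with a 95% interval of -0.61 to 0.81. In the ONP the mean went from 15.1 ± 13.2 to 3.82 ± 2.09 CPM. That log2FC was -2.01 (SE 0.53), and 1 library decided much of it. Without library 1 of the ONP at 7 days it was -1.21 and no longer past the threshold. The days overlapped, since library 5 at 7 days (3.36 CPM) lay within the range at 30 days.

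Cck encodes cholecystokinin. Its level in the ONP was 2.39, 2.10, 2.79 and 1.39 CPM in libraries 1, 2, 5 and 6 at 7 days. At 30 days it ran from 10.7 over a median of 25.3 to 30.3 CPM, so that every library at 30 days was above every library at 7 days. The mean was 10.2 times higher at 30 days, at 22.2 ± 7.55 against 2.17 ± 0.59 CPM (log2FC 3.33, SE 0.35), and leaving out each library in turn gave 3.18 to 3.48. In the ONH, Cck was 6.41, 2.42, 17.6 and 7.51 CPM in libraries 1, 3, 5 and 6 at 7 days and 3.13 to 10.9 CPM (median 6.28) at 30 days, which overlap (log2FC -0.44, 95% interval -1.43 to 0.55).

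The order of the regions for Cck therefore turned over between the days. At 7 days the ONH mean was 3.91 times that of the ONP (log2FC 1.98, SE 0.57), and 3 of 4 ONH libraries were above all 4 of the ONP. This difference is the less certain of the pair, because it did not pass when any of 7 of the 8 libraries was left out, and it was 1.02 (SE 0.59) without the marker-rich libraries. At 30 days the ONP mean was 3.48 times that of the ONH (log2FC -1.81, SE 0.29), and 6 of 7 ONH libraries were below all 7 of the ONP. The change from 7 to 30 days was larger in the ONP than in the ONH by 3.76 on the log2 scale (95% interval 2.52 to 5.001), and by 2.70 (SE 0.56) without the marker-rich libraries.

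Within the ONP at 30 days, the lowest Cck levels were 10.7 CPM in replicate 5 and 12.7 CPM in replicate 7. These were also the lowest of the 7 in the astrocyte list, at 14600 and 20090 CPM, and the highest in the microglia and macrophage list, at 2960 and 3421 CPM. The other 5 replicates had 22.6 to 30.3 CPM of Cck, with astrocyte lists of 22260 to 32410 CPM. Across the days, the medians of the astrocyte list in the ONP were 19510 CPM at 7 days and 26770 CPM at 30 days. The part of cell composition in the Cck difference was not tested.

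Penk encodes proenkephalin, the precursor of the enkephalins. In the ONH at 7 days it was 1.19 and 1.85 CPM in libraries 1 and 3 and 25.5 and 14.2 CPM in libraries 5 and 6. At 30 days it ran from 0.734 over a median of 2.56 to 9.17 CPM. ONP levels were at or below 3 counts in 3 of the 4 libraries at 7 days (0, 0 and 1 counts) and had 8 counts (0.509 CPM) in library 2. At 30 days the ONP held 0.0518 to 0.831 CPM (median 0.323). The ONH mean was 11.2 times higher at 30 days (log2FC 3.45, SE 0.63), and 6 of 7 ONH libraries were above all 7 of the ONP. At 7 days the fitted log2FC of 6.41 (SE 1.396) depended on the few ONP counts and was 9.05 without library 2, so no fold is drawn from it.

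The ONH libraries highest in Penk were those highest in photoreceptor markers. The 4 ONH libraries with 7.68 to 25.5 CPM of Penk had photoreceptor sums of 432 to 5751 CPM, and the 7 libraries with 0.734 to 3.46 CPM had sums of 105 to 232 CPM. Other lists were high in some of these libraries as well. Replicate 5 at 30 days (9.17 CPM of Penk) was the highest of its group in the fibroblast (791 CPM) and pigment cell (559 CPM) lists. Library 6 at 7 days (14.2 CPM of Penk) was the highest of its group in both lists too (1507 and 976 CPM). Without the marker-rich libraries the log2FC was 3.31 (SE 0.64) at 30 days and 3.51 (SE 1.53) at 7 days, and the log2FC of the ONH between the days went from -1.51 (SE 0.80) to 1.15 (SE 0.92). All 8 photoreceptor markers were above 3 counts in every ONH library. The part of retinal mRNA, or of mRNA of other cells, in the Penk levels was not tested.

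**Figure D3:**
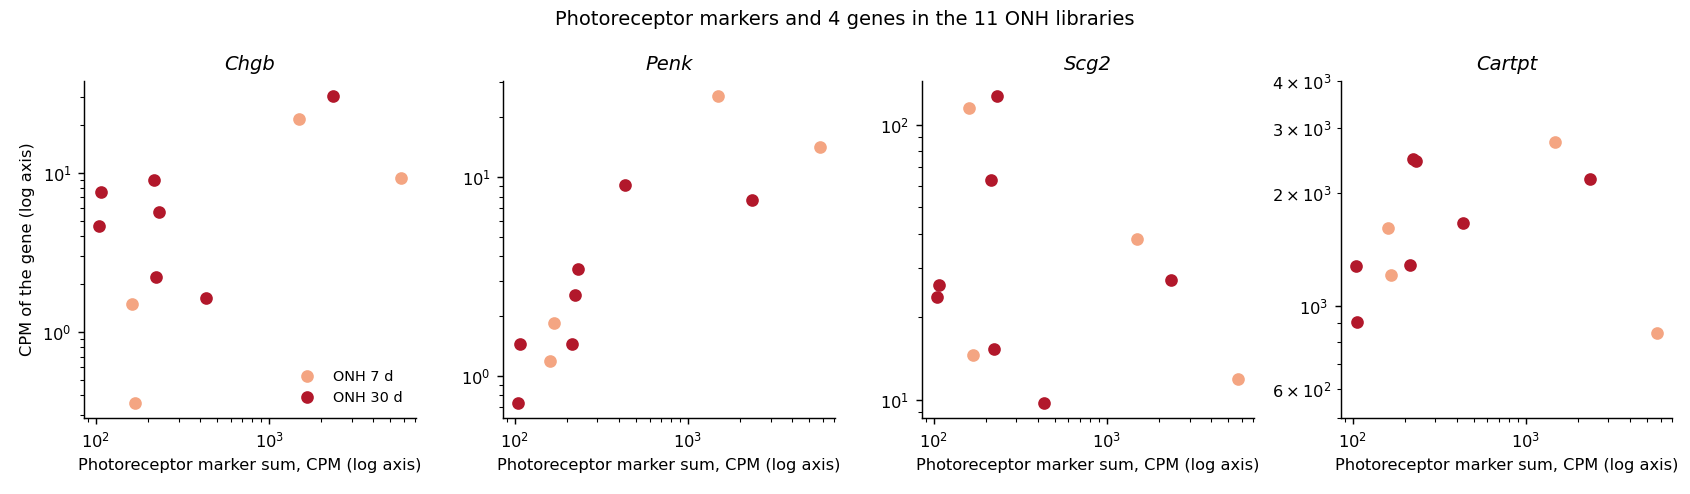
CPM of Chgb, Penk, Scg2 and Cartpt against the summed CPM of 8 photoreceptor markers (both on log axes) in the 11 ONH libraries, with 7 days in orange and 30 days in dark red. Penk is highest in the 4 libraries with sums of 432 CPM and more. The highest Scg2 values, 127 and 115 CPM, are at sums of 232 and 161 CPM.

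Npy encodes neuropeptide Y and was low throughout. In the ONP it was 0.368, 0.0636, 0.369 and 0.0375 CPM (6, 1, 9 and 1 counts) in libraries 1, 2, 5 and 6 at 7 days, and 0.480 to 1.90 CPM (median 1.02) at 30 days. The 7 libraries at 30 days, with 10 to 37 counts each, were all above the 4 at 7 days. Npy was fitted only in comparisons that included the ONP at 30 days. It thus passed the filter on low counts through the group where it is highest, and its values are a description only. The mean was 5.18 times higher at 30 days (log2FC 2.32, SE 0.69), although the threshold was not passed when any of 5 of the 11 libraries was left out. In the ONH, Npy was 0.385 ± 0.355 CPM at 7 days and 0.379 ± 0.321 CPM at 30 days, with its highest values, 0.897 and 0.913 CPM, in the marker-rich library 6 and replicate 4. At 30 days it was 2.86 times higher in the ONP than in the ONH (log2FC -1.53, SE 0.55). Without the marker-rich libraries the log2FC was -2.01 (SE 0.61). The difference was not past the threshold when any of 7 of the 14 libraries was left out, with no filter on low counts, or with all 4 groups in 1 fit.

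Scg2 encodes secretogranin II, the precursor of secretoneurin. In the ONH it was 115, 14.6, 38.4 and 11.8 CPM in libraries 1, 3, 5 and 6 at 7 days, and 9.73 to 127 CPM (median 26.1) at 30 days. The ONP held 0.552, 0.255, 0.657 and 0.600 CPM in libraries 1, 2, 5 and 6 at 7 days, and 0.279 to 2.58 CPM (median 0.814) at 30 days. The lowest ONH library thus held more than the highest ONP library at both times. The means were 45.3 times higher in the ONH at 30 days (log2FC 5.48, SE 0.66) and 87.0 times higher at 7 days (log2FC 6.42, SE 0.82). Leaving out each library gave 4.90 to 6.01 at 30 days and 5.35 to 6.71 at 7 days.

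Among ONH libraries Scg2 varied more than Cartpt, with a coefficient of variation of 98.9% against 35.8% at 30 days and 107% against 51.2% at 7 days. The high values lay in replicate 3 (127 CPM) and replicate 6 (63.0 CPM) at 30 days and in library 1 (115 CPM) at 7 days, none of which was marker-rich. In the library with the highest pituitary list, Scg2 was 26.1 CPM, the median of its group. Without the marker-rich libraries the regional log2FC was 5.65 (SE 0.70) at 30 days and 6.91 (SE 0.74) at 7 days. Between the days the ONH groups overlapped, with a log2FC of -0.13 (95% interval -1.66 to 1.399).

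Chgb encodes chromogranin B. In the ONH it was 1.51, 0.359, 21.9 and 9.31 CPM in libraries 1, 3, 5 and 6 at 7 days and 1.64 to 30.2 CPM (median 5.67) at 30 days. The 3 libraries with photoreceptor sums above 1000 CPM held 30.2, 21.9 and 9.31 CPM, which are the 3 highest of the 11 ONH libraries. ONP levels were 3.07, 2.86, 4.10 and 1.84 CPM in libraries 1, 2, 5 and 6 at 7 days and 3.62 to 7.07 CPM (median 5.14) at 30 days. The regions overlapped at both times. The log2FC for ONH vs ONP was 0.71 (95% interval -0.34 to 1.77) at 30 days and 1.48 (-0.59 to 3.55) at 7 days, and without the marker-rich libraries the sign turned, to -0.22 (SE 0.36) and -1.69 (SE 0.79). In the ONP, 6 of 7 libraries at 30 days were above all 4 at 7 days (log2FC 0.80, 95% interval 0.23 to 1.375). This change passed under DESeq2 and not in the main edgeR fit. With edgeR it passed under RLE size factors, library size only or the filter of 10 counts per library, and without library 5 at 7 days.

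Scg3 encodes secretogranin III, which binds chromogranin A and sorts it to the vesicles. It was 212, 262, 201 and 160 CPM in libraries 1, 3, 5 and 6 of the ONH at 7 days and 177 to 345 CPM (median 242) at 30 days. In the ONP it was 368, 297, 323 and 252 CPM in libraries 1, 2, 5 and 6 at 7 days and 177 to 364 CPM (median 260) at 30 days. All 4 groups overlapped. The log2FC of ONH vs ONP was -0.09 (95% interval -0.49 to 0.31) at 30 days and -0.55 (-0.97 to -0.13) at 7 days. The latter was past the threshold under DESeq2 and not in the main edgeR fit. With edgeR it was past the threshold when library 3 of the ONH was left out.

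Vgf, a nerve growth factor inducible granin, was too low for the fit, although with no filter on low counts, and under DESeq2, it was past the threshold for ONH vs ONP at 30 days. It had 28 counts in all over the 7 ONH libraries at 30 days and 25 over the 4 at 7 days, against 3 counts over 7 ONP libraries and 4 counts over 4. The counts of the ONH correspond to 9.26 times those of the ONP at 30 days, with a counting interval of 2.86 to 47.6, and 6.48 times at 7 days, with an interval of 2.24 to 25.6. These intervals cover counting error only and not the spread between pools. Of the 28 counts, 11 were in replicate 7, the pituitary-rich library, and 9 in replicate 3.

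Cpe encodes carboxypeptidase E. Its level was 2102, 2948, 2402 and 1764 CPM in libraries 1, 3, 5 and 6 of the ONH at 7 days and 2137 to 3378 CPM (median 2678) at 30 days. In the ONP it was 3608, 3050, 3203 and 2264 CPM in libraries 1, 2, 5 and 6 at 7 days and 2320 to 5082 CPM (median 3414) at 30 days. All 4 groups overlapped, and the fold between any library and another of its group was at most 2.19. The log2FC of ONH vs ONP at 30 days was -0.33 (95% interval -0.67 to 0.02). It was -0.37 (-0.82 to 0.07) at 7 days.

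Pcsk1n encodes proSAAS, an inhibitor of prohormone convertase 1. In the ONH it was 59.4, 66.4, 114 and 36.7 CPM in libraries 1, 3, 5 and 6 at 7 days and 84.7 to 198 CPM (median 114) at 30 days. The ONP held 52.3, 49.1, 43.5 and 38.6 CPM in libraries 1, 2, 5 and 6 at 7 days and 30.7 to 66.1 CPM (median 44.1) at 30 days. The regions were apart at 30 days (2.68 times higher in the ONH, log2FC 1.41, SE 0.20) and overlapped at 7 days (log2FC 0.61, 95% interval -0.05 to 1.27). Without the marker-rich libraries these values were 1.48 (SE 0.20) and 0.45 (SE 0.18). Between the days the ONH went from 69.0 ± 32.3 to 119 ± 37.4 CPM (log2FC 0.76, 95% interval 0.14 to 1.37), which did not pass.

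The gene of the convertase that proSAAS inhibits, Pcsk1, was at or near 0. It had 0 counts in all 8 libraries at 7 days, at most 3 counts in an ONH library at 30 days and at most 18 counts (0.787 CPM) in an ONP library at 30 days. In the ONP, 6 of 7 libraries at 30 days were above all 4 at 7 days. Pcsk1 was too low for the edgeR fit of that change, which passed under DESeq2 (DESeq2 adjusted p = 0.018). Pcsk2, which encodes prohormone convertase 2, was detected in both regions and was lower in the ONH. It was 2.34 ± 0.97 CPM in the ONH and 6.08 ± 0.82 CPM in the ONP at 30 days (n = 7 each, log2FC -1.37, edgeR adjusted p = 0.0024), and 1.79 ± 0.90 against 7.69 ± 1.46 CPM at 7 days (n = 4 each, log2FC -2.09, edgeR adjusted p = 0.013).

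A further 116 genes of the same pathway were listed, in 6 groups: other peptide precursors, other granins, processing enzymes, genes of vesicle formation and release, receptors, and enzymes that degrade peptides. Of these, 113 were in the table. The rule that chose the 10 genes did not use them, and they were tested with edgeR and adjusted over all genes. The lists were drawn up with earlier results of these data known, so the calls are not independent of the data. For ONH vs ONP at 30 days, 33 of 73 tested passed (12 higher and 21 lower in the ONH), a share of 45.2% beside the 41.8% of all genes. The median log2FC was -0.20, beside -0.01 for all genes. At 7 days, 14 of 70 passed (6 higher and 8 lower, 20% beside 13.2%). The median was -0.20, beside 0.07.

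Among other peptide precursors, most were not expressed at a level that could be fitted, with 9 of 35 tested at 30 days and 7 of 35 at 7 days. At 30 days 3 passed as higher in the ONH and 1 as lower. Adm, the precursor of the vasodilator adrenomedullin, was 29.7 ± 9.74 CPM in the ONH and 7.06 ± 1.61 CPM in the ONP at 30 days (log2FC 2.07, SE 0.22, edgeR adjusted p = 4.7e-06). At 7 days Adm was also higher in the ONH, at 51.9 ± 10.3 against 18.6 ± 6.62 CPM (log2FC 1.5, edgeR adjusted p = 0.0046). Nppc, which encodes C-type natriuretic peptide, was higher in the ONH at both times (log2FC 1.001 and 1.72, edgeR adjusted p = 7.9e-05 and 0.026). Nmu, for neuromedin U, was higher in the ONH at 30 days at a low level (1.36 ± 0.75 against 0.201 ± 0.138 CPM, log2FC 2.71, edgeR adjusted p = 0.00083). Nmu was too low in the ONP to be fitted there between the days, so it entered this fit through its ONH counts.

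Apln, for apelin, was lower in the ONH at both times, with 24.4 ± 6.82 against 48.6 ± 15.9 CPM at 30 days and 19.5 ± 4.42 against 78.6 ± 10.9 CPM at 7 days (edgeR adjusted p = 0.0022 and 0.00028). Tac1, the precursor of substance P, was lower in the ONH at 7 days (1.04 ± 0.59 against 5.66 ± 1.36 CPM, edgeR adjusted p = 0.017). The other granins, Chga and Scg5, did not pass for ONH vs ONP at either time (0 at an unadjusted p under 0.05 and 0 with DESeq2, in both). Scg5, which encodes the chaperone of convertase 2, was 210 ± 42.8 CPM in the ONH and 183 ± 41.4 CPM in the ONP at 30 days.

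Of 12 processing enzymes tested, 8 passed at 30 days (2 higher and 6 lower in the ONH) and 6 at 7 days (2 higher and 4 lower). Pam, which encodes the enzyme that amidates peptides, was 130 ± 28.4 CPM in the ONH and 47.7 ± 7.50 CPM in the ONP at 30 days (log2FC 1.44, SE 0.15, edgeR adjusted p = 4.8e-06). Cpm, for the membrane enzyme carboxypeptidase M, had the reverse order, with 31.6 ± 11.97 against 104 ± 42.4 CPM (log2FC -1.71, edgeR adjusted p = 0.00018), and likewise at 7 days (log2FC -2.55, edgeR adjusted p = 0.00081). Pcsk6, for a convertase of the constitutive pathway, was lower in the ONH at both times (log2FC -1.13 and -1.33, edgeR adjusted p = 0.0034 and 0.0092). Cpd, for carboxypeptidase D of the trans-Golgi network, was lower in the ONH at 7 days (57.0 ± 12.2 against 126 ± 23.6 CPM, edgeR adjusted p = 0.0060).

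Of the 39 genes of vesicle formation and release, 16 of 35 tested passed at 30 days (6 higher and 10 lower in the ONH) and 4 of 33 at 7 days (2 higher and 2 lower). Syt4, a synaptotagmin found on dense core vesicles, was higher in the ONH at both times, at 10.6 ± 5.49 against 3.18 ± 1.06 CPM at 30 days and 14.4 ± 8.08 against 0.930 ± 0.626 CPM at 7 days (log2FC 1.72 and 3.99, edgeR adjusted p = 0.00080 and 0.0031). Other synaptotagmins were lower in the ONH at 30 days, of which Syt17 had the largest log2FC (0.600 ± 0.596 against 3.29 ± 0.921 CPM, log2FC -2.47, edgeR adjusted p = 0.0019). Among small GTPases of secretory vesicles, Rab26 was higher and Rab3c lower in the ONH at 30 days (log2FC 1.74 and -1.88, edgeR adjusted p = 0.0011 and 0.0026). Rab26 was too low in the ONP to be fitted there between the days, so it entered this fit through its ONH counts. Syt11 was the most abundant of the named vesicle genes, at 933 ± 104 CPM in the ONH and 2597 ± 177 CPM in the ONP at 7 days (log2FC -1.46, edgeR adjusted p = 0.00023). At 7 days Cyb561, for the vesicle cytochrome that regenerates ascorbate, was higher (log2FC 1.07, edgeR adjusted p = 0.043) and Stx6, a syntaxin of the trans-Golgi network, was lower (log2FC -0.70, edgeR adjusted p = 0.033). Both lost the call without the marker-rich libraries.

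Of the peptide-degrading enzymes, 5 of 12 tested passed at 30 days, with Lnpep higher in the ONH (log2FC 0.65, edgeR adjusted p = 0.0016) and Ece1, Dpp4 and Ace among the 4 lower (log2FC -1.22, -1.04 and -1.004, edgeR adjusted p = 0.016, 0.026 and 0.030). Dpp4 did not pass without the marker-rich libraries. At 7 days 0 of 12 passed with edgeR (2 at an unadjusted p under 0.05, 1 with DESeq2). Some of the regional calls rested on single libraries. At 30 days the call was lost when any of 4 of the 14 libraries was left out for Ace and any of 2 for Dpp4. At 7 days it was lost for any of 7 of the 8 libraries for Cyb561, 5 for Nppc and for Stx6, 2 for Tac1 and 1 for Pcsk2.

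**Figure D4:**
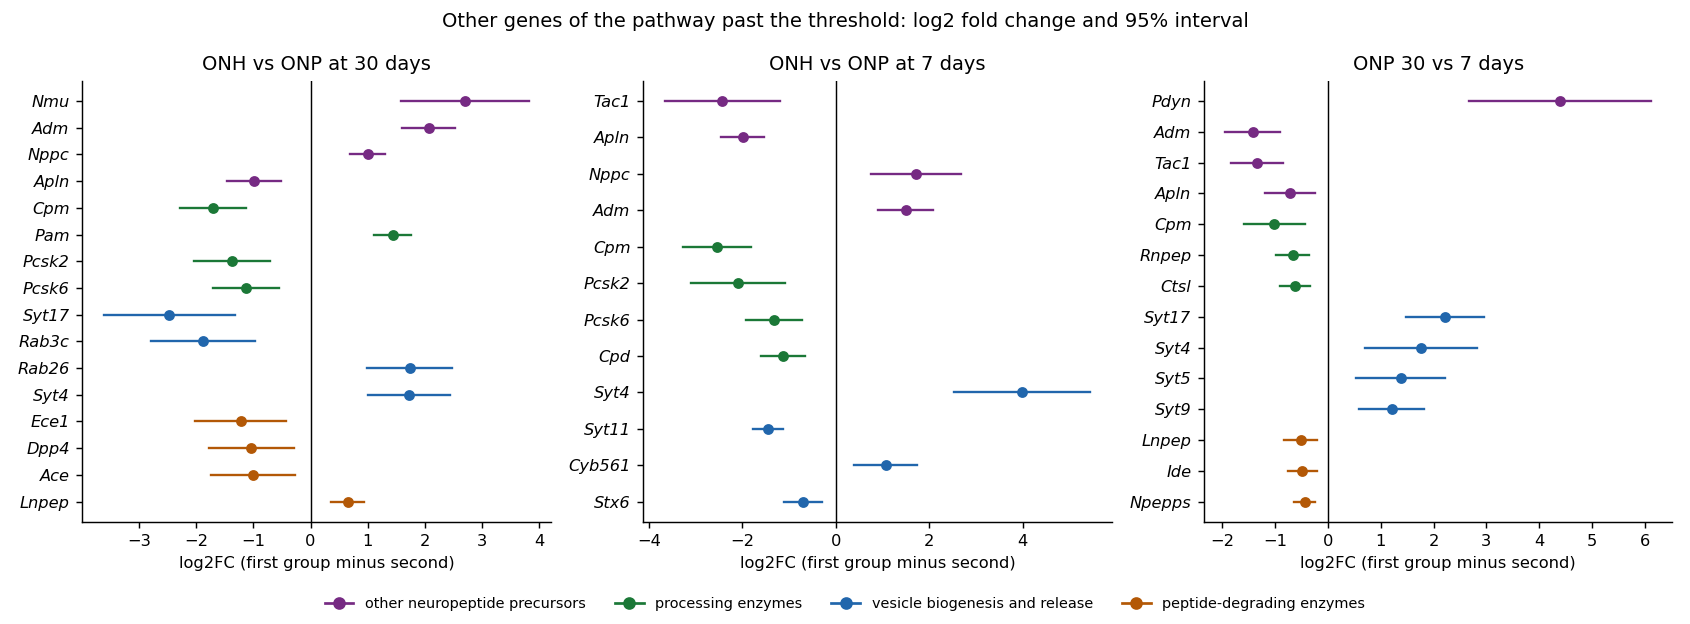
log2FC with its 95% interval for the other pathway genes past the threshold, at most 4 for each list and comparison, as the first group minus the second. Colours mark the list. Pdyn is the farthest from 0 for the ONP between the days, and Syt4 for the regions at 7 days.

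In the ONP between 7 and 30 days, 18 of 73 of these pathway genes passed (6 higher and 12 lower at 30 days), 24.7% beside 17.0% of all genes, with a median log2FC of -0.20 beside -0.01. Among the other precursors, Pdyn, the precursor of the dynorphins, rose from 0.374 ± 0.454 CPM (0 to 0.919 CPM, n = 4) to 7.91 ± 2.57 CPM (4.57 to 12.03 CPM, n = 7), and the days did not overlap (log2FC 4.39, SE 0.80, edgeR adjusted p = 0.0042). Pdyn entered this fit only through its counts at 30 days. Without library 1 of the ONP at 7 days its log2FC was 5.24. Pdyn was the 1 of 8 other precursors tested that rose past the threshold, while Adm, Tac1 and Apln fell past it. Adm went from 18.6 ± 6.62 to 7.06 ± 1.61 CPM (log2FC -1.43, edgeR adjusted p = 0.0027), Tac1 from 5.66 ± 1.36 to 2.27 ± 0.38 CPM (log2FC -1.34, edgeR adjusted p = 0.0030) and Apln from 78.6 ± 10.9 to 48.6 ± 15.9 CPM (log2FC -0.72, edgeR adjusted p = 0.041). In the ONH, Pdyn varied from 0 to 10.9 CPM at 7 days and from 0.0449 to 9.64 CPM at 30 days.

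Also in the ONP, 5 vesicle genes rose past the threshold from 7 to 30 days, and 4 of them were synaptotagmins, namely Syt17, Syt4, Syt5 and Syt9. Syt17 went from 0.702 ± 0.200 to 3.29 ± 0.921 CPM and Syt9 from 5.25 ± 2.13 to 12.4 ± 2.97 CPM (log2FC 2.21 and 1.203, edgeR adjusted p = 0.0019 and 0.015). For Syt4 and Syt5 the log2FC was 1.76 and 1.38 (edgeR adjusted p = 0.028 and 0.030). The 3 processing enzymes that passed, Cpm, Rnpep and Ctsl, were lower at 30 days (log2FC -1.01, -0.67 and -0.62, edgeR adjusted p = 0.024, 0.0091 and 0.0088). The 3 degrading enzymes that passed, Lnpep, Ide and Npepps, were lower as well (log2FC -0.52, -0.49 and -0.44, edgeR adjusted p = 0.031, 0.022 and 0.0081). In these same libraries the oligodendrocyte list fell past the threshold in 7 of its 8 genes, with a median log2FC of -0.88. The astrocyte list rose past it in 1 of 10, with a median of 0.28. Other lists fell too, namely the endothelial list in 3 of 6 genes (median -1.68), the neuron list in 4 of 9 fitted (median -0.997) and the mural cell list in 2 of 4 (median -0.72). In each of these, 0 genes rose past the threshold. The part of cell composition in these changes was not tested. The call was lost when any of 9 of the 11 libraries was left out for Apln, 6 for Syt5 and for Lnpep, 3 for Syt4, and 2 for Cpm and for Ide.

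In the ONH between the days, edgeR passed 0 of 76 pathway genes, with 11 at an unadjusted p under 0.05 and 2 with DESeq2. For the difference between the regions in the 30 vs 7 day change it passed 0 of 78, with 16 at an unadjusted p under 0.05 and 5 with DESeq2. The greater number of calls in the ONP is therefore not shown to be a difference between the regions for these genes.

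Receptors of the peptides could be tested for 3 or 4 of 10 genes, and none passed with edgeR in any of the 5 comparisons. At an unadjusted p under 0.05 there were 0 for ONH vs ONP at 30 days, 1 at 7 days, 0 for the ONH between the days, 1 for the ONP, and 1 for the difference between the regions. DESeq2 passed 1 for ONH vs ONP at 30 days and 1 at 7 days. Cckbr, which encodes the brain form of the cholecystokinin receptor, was present in every group, at 10.3 ± 4.39 CPM in the ONH and 22.5 ± 7.64 CPM in the ONP at 7 days, and 10.8 ± 4.03 and 12.9 ± 5.35 CPM at 30 days. The opioid receptor genes Oprm1 and Oprd1 were at or below 2 counts in every library, and Oprk1 had at most 4. C3ar1, a complement receptor that also binds a peptide of Vgf, was 0.906 to 79.8 CPM over the libraries at 30 days, with its highest values in replicate 7 of each region, the replicates with the highest microglia and macrophage lists (3145 and 3421 CPM).

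The genes whose levels ran most like each member over the 22 libraries, by Pearson's r of log2 CPM among 16748 genes, differed between members. The libraries share their region, so a gene that differs between the ONH and ONP gives a high r. Cartpt ran most like Mgarp (r = 0.99), Tmem37 (0.98) and Tes (0.98). Scg2 ran most like the pancreatic lipase related genes Pnliprp2 and Pnliprp1 (0.95 for both) and 2010111I01Rik (0.94), and Pcsk1n like Stk19, Samd4 and S100a13 (0.96, 0.95 and 0.95). Cck ran most like Myoc, the myocilin gene (0.92), then Rgs7bp (0.87) and Pnck (0.86).

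Penk ran most like Gnb3 (0.93), which encodes a transducin subunit of cones and bipolar cells, and then like Gm3776 (0.92) and Mfap2 (0.91). Npy ran most like Vsx1 (0.81), a factor of retinal bipolar cells, then Ubxn2b (0.78) and Sfrp5 (0.77). Chgb ran most like Svop (0.85), Frat1 (0.77) and Syp (0.75), of which Svop and Syp encode proteins of synaptic vesicles. Scg3 and Cpe shared Plxnb1 among their 3 (0.89 and 0.88). The others were Slc16a1 (0.89) and Arhgef4 (0.88) for Scg3, and Mmd2 (0.90) and Ntsr2 (0.89) for Cpe.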

How the data were processed

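Ribosome-bound mRNA was isolated by RiboTag immunoprecipitation from pools of 4 mice. Per the labels and methods, the authors mapped read pairs (150 bases each) by STAR 2.6.1d and quantified genes by Salmon 0.14.2 (mm10, Ensembl 94). They deposited expected counts per gene, rounded to whole numbers and not normalized, and log2 values from the variance stabilizing transformation of DESeq2 1.34.0. All columns were used.

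Libraries of 2 groups were compared with edgeR 4.0.16 in R 4.3.3 (filterByExpr by group, TMM, quasi-likelihood test, Benjamini-Hochberg adjustment over all genes, adjusted p-value under 0.05, no log2FC cutoff). The difference between the regions in the 30 vs 7 day change was fitted over all 4 groups. SE and 95% intervals come from these fits. CPM values were scaled by TMM over 22 libraries. Levels per kb used merged exons of GENCODE M21 (GRCm38). DESeq2 was run as version 1.42.0. The scripts were tested on simulated data.

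Replicates were separate pools. Of 54 pairs of libraries of a group, none agreed within sampling noise. The counting intervals of Vgf and the limits of 3 counts cover counting error only, and reads without molecular identifiers are not independent molecules. The intervals from the edgeR fits include the spread between pools. The 7 day columns carry numbers that differ from those of the labels, so these libraries were assigned by region and day only.

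The 10 genes, the pathway lists and the tests were chosen with earlier results of these data known. Named are all 10 genes, of each pathway list and comparison up to 4 genes past the threshold by size of log2FC, the markers needed to describe a list, and the 3 genes most like each member. Other pathway genes named (Pcsk1, Chga, Scg5, receptors, and Pcsk2 beside Pcsk1) were picked to describe a count or a role, after their values were seen. Alternatives were DESeq2, RLE size factors, library size only, a filter of 1 count in total or of 10 counts per library, all 4 groups in a single fit, the replicate block and each library left out. Added after seeing the data were the marker-rich libraries left out together and the difference of the deposited log2 values. Uninjured samples were not used here.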

Additional observations from a re-analysis of the deposited data

Results flagged for a closer look

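In 40 checks of a member in a group for a library far from the others, 5 were found, where chance gives about 1 in 20. Penk stood at 0.509 CPM in library 2 of the ONP at 7 days, against at most 0.0375 CPM in the other 3. Penk stood at 0.831 CPM and Scg2 at 2.58 CPM in replicate 1 of the ONP at 30 days, against at most 0.341 and 0.969 CPM in the other 6. Without that replicate the Scg2 log2FC of the ONP between the days went from 0.79 to 0.28. Chgb stood at 30.2 CPM in replicate 4 of the ONH at 30 days, against at most 9.05 CPM in the other 6, and without it the log2FC of ONH vs ONP went from 0.71 to -0.05. Pcsk1n stood at 198 CPM in replicate 6 of the same group, against at most 119 CPM, and without it the log2FC of ONH vs ONP went from 1.41 to 1.24.

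The 30 vs 7 day change of Cck differed between the regions, by 3.76 on the log2 scale (SE 0.60), being larger in the ONP. Cck was chosen on these same levels, so this is a description.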

How the results depend on the processing

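No value past the threshold changed sign. Of the values of the 10 genes, 295 under other settings and 562 with a library left out moved by less than the spread between replicates, and 14 and 2 moved by more. Of those of pathway genes, 270 and 420 kept the call and 20 and 54 lost it.

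The study took ONH and ONP from the same mice, but nothing used here ties the replicate numbers of the regions to each other. At 30 days, deviations of same-numbered libraries correlated with r from 0.08 to 0.47, 5 of 7 over 0.1. These values do not settle whether same-numbered libraries share mice, and the main fits treat them as unpaired. With the replicate block at 30 days, 6717 genes and 35 pathway genes passed, against 6322 and 33, and among the 10 genes Cpe gained the call and Npy lost it. Of the 7 pairs, 3 correlated best with their own number, which is a hint from the data and not from the design. No block was fitted in the other comparisons. The 7 day columns do not carry the replicate numbers of the labels, and the days used different mice. A block on the column numbers that both regions share at 7 days was not run.

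For ONH vs ONP at 7 days, the count of genes (1940) was 3211 with DESeq2 and 3785 with all 4 groups in 1 fit. For the ONH between the days (0), it was 446 with DESeq2, 292 with all 4 groups in 1 fit, 2 with no filter and 8 without the marker-rich libraries, and the pathway count (0) was 2 with DESeq2 and 1 with all 4 groups in 1 fit. For the ONP (2638 genes, 18 of the pathway), all 4 groups in 1 fit gave 1189 and 8. For the difference between the regions in the change (91 and 0), DESeq2 gave 409 and 5, no filter 50 genes, and leaving out the marker-rich libraries 337 and 4.

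With each library left out, the counts of genes ran from 5671 to 6416 (pathway 27 to 33) for the regions at 30 days, from 1102 to 2379 (8 to 17) at 7 days, from 0 to 167 (0 to 0) for the ONH and from 1439 to 3214 (12 to 22) for the ONP between the days, and from 22 to 318 (0 to 4) for the difference. At 7 days, leaving out ONP library 2, 5 or 6 gave 1147, 1173 and 1102 genes (8, 8 and 9 of the pathway), and for the ONP between the days 7 day library 6 gave 1439 and library 2 gave 12 pathway genes. For the ONH, 7 day libraries 1, 5 and 6 gave 1, 167 and 1. For the difference, 7 day ONH libraries 1, 3 and 5 gave 36, 58 and 318, ONP libraries 1, 2 and 6 gave 22 each, 30 day ONH replicates 2 and 6 gave 38 and 59, and ONP replicates 1 to 6 gave 39, 52, 40, 59, 144 and 31, while the pathway count went from 0 to 1 (ONH replicates 3 and 4), 2 (ONP replicate 5) and 4 (7 day ONH library 5). Genes at few counts, such as Penk and Npy in the ONP, are limited by depth, and on the deposited log2 values their differences were smaller (Penk at 30 days 1.55 in place of 3.45, and Npy in the ONP 0.86 in place of 2.32). The cause of these differences was not tested.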
